A study of Homo sapiens with 2 samples.

Results

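Hotspots of DNase I accessibility along human chromosome 21 were taken as every row of that chromosome in the 2 deposited lists, 1 for the cell line Saos-2 and 1 for U2OS. Saos-2 contributed 710 of its 51556 hotspots and U2OS 621 of its 63388, so the chromosome held 1331 of 114944 hotspots in all. Both are established human lines grown from osteosarcomas, tumours of bone-forming cells, and the labels name no treatment or engineered change in either. In the assay, nuclei were exposed to a limiting dose of DNase I for 3 min, and places where the enzyme cut often were called as hotspots by the authors at a false discovery rate of 0.05. Each line was 1 library, so the spread between replicates is unknown, no test was possible and p-values are absent. Positions are on hg38.

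Chromosome 21 was chosen by its measured ratio of Saos-2 to U2OS hotspots, 1.14, the highest of the chromosomes compared. The numbers of hotspots in each line, and every comparison of the lines along the chromosome, are therefore a description and not a test. On the log2 scale, U2OS hotspots per Saos-2 hotspot stood at -0.50 relative to the other chromosomes (95% counting interval -0.65 to -0.34). Only 1 of the 22 other chromosomes compared (1 to 22 and X) also had more Saos-2 than U2OS hotspots. Significance below is the −log10 value that the authors gave each hotspot, and the lowest listed on chromosome 21 was 1.36 for Saos-2 and 1.33 for U2OS. Sites below the false discovery limit are not listed.

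Nucleosomes cover most DNA, and DNase I cuts mainly where they are displaced, at active promoters and at enhancers and other regulatory elements. Promoters of widely used genes tend to be open in many cell types, whereas distal elements are more particular to a cell type. Chromosome 21 is a small acrocentric chromosome: its short arm carries satellite repeats and ribosomal RNA genes, the proximal part of its long arm has few genes, and the distal part has many. It is known for Down syndrome, which follows from an extra copy, and it carries interferon receptor genes, RUNX1, ERG and ETS2, and the genes of collagen VI.

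The labelled tissue was checked at marker genes. Of 10 genes of the osteoblast lineage, 5 had a hotspot within 1 kb of an end in each line, with RUNX2, SPARC, BGLAP and MSX2 among them in both, ALPL in Saos-2 only and COL1A1 in U2OS only, while SP7, IBSP, SPP1 and COL1A2 had none in either. Of 5 genes of blood cells, 3 had one in each line, and of 5 epithelial genes 0 did in Saos-2 and 2 (KRT8 and KRT18) in U2OS. Of 4 neural genes, 1 did in Saos-2 and 2 in U2OS. Over protein-coding genes of the other chromosomes the share with such a hotspot was 47.9% in Saos-2 and 53.5% in U2OS, so the osteoblast count was near that of genes in general and does not mark the tissue.

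The sequences that gene-end hotspots covered are shown for 5 promoters: the 250 bases before the start of a gene, from RefSeq on GRCh38.p14, 5′ to 3′ on the strand of the gene. Among long-arm promoters whose 250 bases all lay in a hotspot, they are the 2 open in Saos-2 alone (MX1 and RRP1), the 1 open in U2OS alone (USP25) and 2 of the 16 open in both lines, those whose less significant hotspot ranked highest (HSPA13 and ATP5PF). Capitals mark the GC box GGGCGG, the ETS motif CCGGAAG and the CCAAT box CCAAT on either strand. No 2 marked motifs of different kinds overlap.
MX1 (chr21:41420308-41420557, plus strand): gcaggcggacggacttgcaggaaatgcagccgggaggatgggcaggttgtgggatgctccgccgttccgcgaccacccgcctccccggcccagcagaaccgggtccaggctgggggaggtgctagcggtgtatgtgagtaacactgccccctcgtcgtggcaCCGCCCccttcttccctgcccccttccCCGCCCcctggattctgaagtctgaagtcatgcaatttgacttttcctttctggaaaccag
RRP1 (chr21:43789327-43789576, plus strand): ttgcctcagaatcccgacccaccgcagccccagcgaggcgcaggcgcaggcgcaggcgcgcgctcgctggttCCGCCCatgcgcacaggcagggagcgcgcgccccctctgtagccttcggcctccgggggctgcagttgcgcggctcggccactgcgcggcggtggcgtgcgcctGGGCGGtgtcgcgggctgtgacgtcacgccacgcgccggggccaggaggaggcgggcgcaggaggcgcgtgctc
USP25 (chr21:15729732-15729981, plus strand): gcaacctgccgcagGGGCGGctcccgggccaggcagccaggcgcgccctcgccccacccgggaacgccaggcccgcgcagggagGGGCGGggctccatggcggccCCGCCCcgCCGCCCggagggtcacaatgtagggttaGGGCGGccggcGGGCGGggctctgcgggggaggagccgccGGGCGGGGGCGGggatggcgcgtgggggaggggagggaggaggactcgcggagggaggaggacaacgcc
HSPA13 (chr21:14383147-14383396, minus strand): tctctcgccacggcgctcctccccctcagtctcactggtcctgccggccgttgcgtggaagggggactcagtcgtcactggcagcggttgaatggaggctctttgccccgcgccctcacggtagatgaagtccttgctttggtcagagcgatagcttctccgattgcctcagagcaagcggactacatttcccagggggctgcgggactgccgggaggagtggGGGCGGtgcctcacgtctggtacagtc
ATP5PF (chr21:25735055-25735304, minus strand): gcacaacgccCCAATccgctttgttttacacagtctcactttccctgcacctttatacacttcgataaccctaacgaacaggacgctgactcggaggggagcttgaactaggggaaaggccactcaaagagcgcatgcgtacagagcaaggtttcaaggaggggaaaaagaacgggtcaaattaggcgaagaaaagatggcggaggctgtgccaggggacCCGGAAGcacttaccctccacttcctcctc

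MX1 encodes an interferon-induced antiviral GTPase, RRP1 a factor of ribosomal RNA processing, USP25 a deubiquitinating enzyme, HSPA13 a member of the Hsp70 chaperone family, and ATP5PF a subunit of mitochondrial ATP synthase. The hotspot over the MX1 stretch reached 11.2 in Saos-2, that over RRP1 reached 5.15, and neither stretch was touched in U2OS. Over USP25 the U2OS hotspot had a significance of 4.27, with none in Saos-2. HSPA13 had 55.8 in Saos-2 and 31.2 in U2OS, and ATP5PF had 28.2 and 29.1. The stretch of USP25 held 8 GC boxes, those of MX1 and RRP1 held 2 each, that of HSPA13 held 1, and that of ATP5PF held 1 ETS motif and 1 CCAAT box.

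Such stretches could be examined for 183 of the 238 protein-coding genes of the chromosome. The median number of CpG in 250 bases was 24.5 for the 48 promoters touched by a hotspot in both lines, 33.5 for the 12 touched in Saos-2 only, 20 for the 5 touched in U2OS only and 4 for the 118 touched in neither, against 17 on the other chromosomes. The 5 of U2OS only ranged from 5 to 30. Of the 12 of Saos-2 only, 10 lay on the long arm. The 118 touched in neither included those of the clustered keratin-associated protein genes, with 0 to 10 CpG each. These were not set apart in the shares of this paragraph. A GC box was present in 62.5% of the promoters open in both lines and 28.0% of those open in neither, against 56.2% of 15660 protein-coding promoters on the other chromosomes. The ETS motif was in 27.1% of those open in both, in 4.24% of those open in neither and in 11.8% elsewhere, and the CCAAT box in 41.7%, 17.8% and 34.6%. Promoters of a single line were few and did not all follow the shared ones: the CCAAT box was in 1 of the 12 of Saos-2 only (8.33%) and in 1 of the 5 of U2OS only, and the ETS motif in 2 and 0. A GC box was in 10 and 5. Of 3 further motifs searched on both strands, AP-1 (TGANTCA) was in 8 of the 118 promoters open in neither line and in 0 of the 65 others, the E-box CACGTG was in 9 and 3, and the NRF1 motif was in 0 and 4. On the other chromosomes these were in 5.05%, 7.85% and 1.48% of promoters. A match of letters is not a bound site.

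The balance of the lines changed along the chromosome. When chromosome 21 was divided into 22 windows of 2 Mb, Saos-2 had the larger number in 13 and U2OS in 9. Counting hotspots at least 200 bp wide alone, Saos-2 had the larger number in 9 of the 22. On the other chromosomes Saos-2 had the larger number in 26.5% of 1452 windows with a hotspot. Of the Saos-2 windows, 8, from 32 Mb to the end of the long arm, followed one another. The other 5 were the 4 lowest, from 4 to 12 Mb (3, 9, 19 and 13 hotspots in Saos-2 against 0, 2, 13 and 9 in U2OS), and that from 14 to 16 Mb. From 16 to 22 Mb the lines were close, with 26, 10 and 11 hotspots in Saos-2 against 32, 11 and 15 in U2OS, and from 26 to 28 Mb they had 51 and 55. The longest such stretch on another chromosome was 9 windows and the median was 3.5. Of the 22 other chromosomes, 4 had a stretch of at least 8, and none had as large a share of windows with more Saos-2 hotspots.

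**Figure D1:**
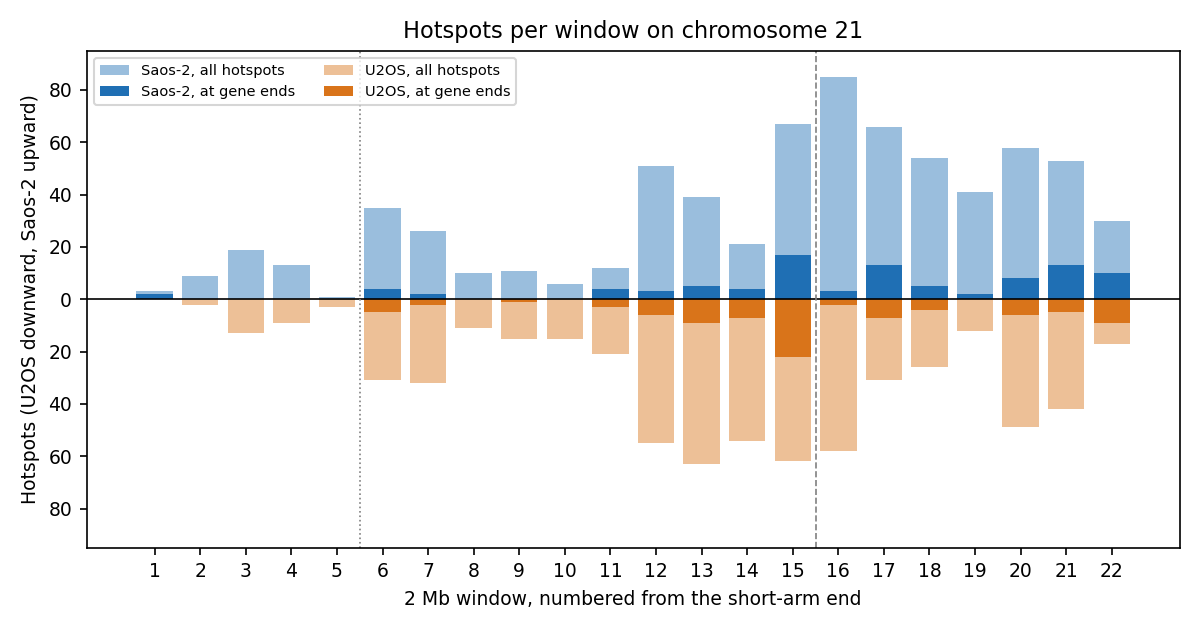
Hotspots per 2 Mb window (vertical axis, number of hotspots, Saos-2 upward and U2OS downward) against the window number from the short-arm end (horizontal axis, 22 windows), with gene-end hotspots in the darker part of each bar. The dotted line marks 14 Mb and the dashed line 34 Mb; right of the dashed line Saos-2 has the larger number in all 7 windows, from 30 against 17 to 85 against 58.

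Running totals placed the turn within the interferon receptor genes. The running number of Saos-2 minus U2OS hotspots fell along the proximal long arm to its lowest value, -76, at the U2OS hotspot at chr21:33230256-33230464 inside IFNAR2, and then climbed to 89 at the last hotspot. For description, the chromosome was divided after this had been seen into a segment below 14 Mb (short arm and centromere), the long arm from 14 to 34 Mb and the long arm above 34 Mb.

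**Figure D2:**
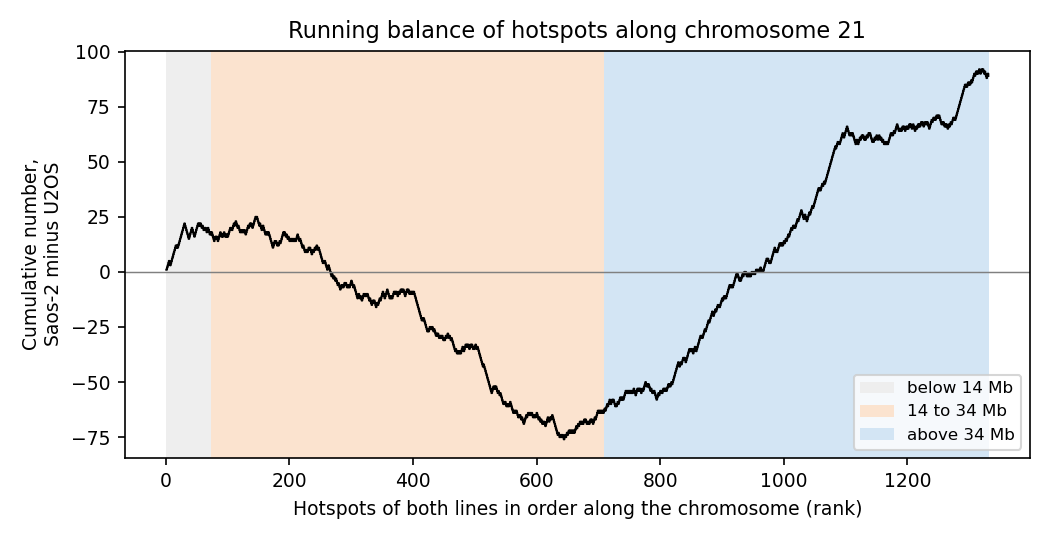
The running number of Saos-2 minus U2OS hotspots (vertical axis) over the 1331 hotspots of both lines in chromosome order (horizontal axis, rank), with the 3 segments shaded. The line falls through the segment from 14 to 34 Mb to -76 and climbs through the segment above 34 Mb to 89.

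Above 34 Mb, Saos-2 had 387 hotspots and U2OS 235, which is 1.65-fold as many (counting interval 1.40 to 1.94). The excess was similar at gene ends, with 54 against 33 (1.64-fold, 1.06 to 2.52), and elsewhere, with 333 against 202 (1.65-fold). In each of the 7 windows Saos-2 was ahead both at gene ends and elsewhere. From 14 to 34 Mb the order was opposite, with 278 Saos-2 and 359 U2OS hotspots, or 1.29-fold as many in U2OS (1.10 to 1.51). Gene-end hotspots there numbered 39 and 55 (1.41-fold as many in U2OS, 0.936 to 2.13). With lists cut to the same genome-wide length, the segment from 14 to 34 Mb came close to even (log2 ratio of Saos-2 to U2OS -0.11, interval -0.34 to 0.13), and that above 34 Mb moved to 0.97 (0.73 to 1.22).

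The difference in number fell on hotspots without overlap, as it must when overlapped hotspots are nearly equal in number. Above 34 Mb, 236 Saos-2 and 83 U2OS hotspots had no overlap of at least 1 bp with the other line, 2.84-fold as many in Saos-2 (2.21 to 3.65). From 14 to 34 Mb they numbered 124 and 208. Overlapped hotspots were nearly equal in number by construction, 151 and 152 in the distal segment.

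Overlap as a share of each list follows the difference in number for the same reason, and it crossed over between the segments. From 14 to 34 Mb, 55.4% of Saos-2 hotspots (Wilson 95% interval 49.5 to 61.1%) and 42.1% of U2OS hotspots (37.1 to 47.2%) were overlapped, close to the 58.3% and 46.9% on the other chromosomes. Above 34 Mb it was 39.0% for Saos-2 and 64.7% for U2OS (58.4 to 70.5%). These intervals describe counting error alone and treat hotspots as independent, which neighbours may not be.

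Sites open in both lines followed the same division. At 141 sites from 14 to 34 Mb where exactly 1 hotspot of each line overlapped, the authors' significance was higher in Saos-2 at 51 (36.2%, 28.7 to 44.4%). On the other chromosomes it was higher in Saos-2 at 37.2% of 27384 such sites. Above 34 Mb it was higher in Saos-2 at 89 of 144 sites (61.8%, 53.7 to 69.3%), and the median significance was 6.33 for the Saos-2 and 4.66 for the U2OS hotspots. By window the share was highest from 40 to 42 Mb (6 of 6), from 46 Mb on (7 of 9) and from 38 to 40 Mb (15 of 20). The window from 44 to 46 Mb departed from this, with 11 of 27, and that from 36 to 38 Mb was near even, with 12 of 23. Saos-2 hotspots were also the wider at 88 of these 144 sites (61.1%), against 60 of 141 in the proximal segment (42.6%). On the other chromosomes they were the wider at 39.9% of paired sites, so the proximal share was near that level. At sites away from gene ends, 62.7% (74 of 118) were more significant in Saos-2 above 34 Mb, and at gene ends 57.7% (15 of 26, 38.9 to 74.5%). The significance depends on depth, which is unknown.

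**Figure D3:**
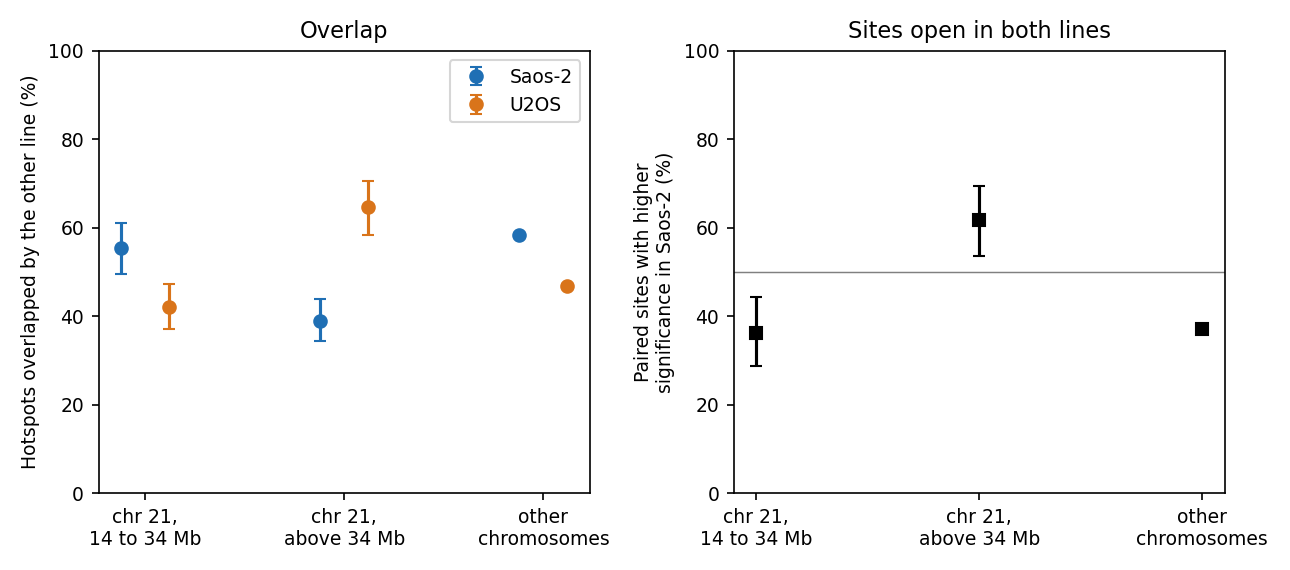
Left, share of hotspots overlapped by the other line (vertical axis, percent) for Saos-2 and U2OS in 2 segments of chromosome 21 and on the other chromosomes; right, share of sites with 1 hotspot in each line at which the significance was higher in Saos-2. Points are shares and bars Wilson 95% intervals; above 34 Mb the overlap is 39.0% for Saos-2 and 64.7% for U2OS, the reverse of the order in the other groups drawn, and 61.8% of paired sites are higher in Saos-2.

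Gene-end hotspots, those no further than 1 kb from the first or last base of a protein-coding gene, made up a smaller part of chromosome 21 than of the others. They numbered 95 in Saos-2 (13.4%, 11.1 to 16.1%) and 88 in U2OS (14.2%, 11.6 to 17.1%), against 20.3% and 18.4% on the other chromosomes. Hotspots between genes were the most frequent kind in both lines, 252 in Saos-2 (35.5%) and 252 in U2OS (40.6%). A further 233 Saos-2 and 181 U2OS hotspots lay inside a protein-coding gene, and 130 and 100 inside other genes only.

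Gene-end hotspots were more significant and more often shared than the rest. Their median significance was 6.48 in Saos-2 and 5.79 in U2OS, against 3.76 and 4.06 away from gene ends, and their median width was 301 and 297 bp against 229 and 240 bp. In Saos-2, 63 of 95 (66.3%, 56.3 to 75.0%) were overlapped by U2OS, against 40.0% of the others. On the other chromosomes these shares were 80.1% and 52.7%, both higher. In U2OS, 60 of 88 (68.2%, 57.9 to 77.0%) were overlapped, against 46.5%, where the other chromosomes had 70.3% and 41.6%. The contrast between gene ends and other places was thus general. Above 34 Mb, however, only 29 of 54 Saos-2 gene-end hotspots (53.7%) were overlapped, against 34 of 39 (87.2%) from 14 to 34 Mb. For U2OS the shares were 28 of 33 (84.8%) above 34 Mb and 32 of 55 (58.2%) below it.

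Counted by gene, both lines had a hotspot at an end of 66 of the 238 protein-coding genes (27.7%, against 42.9% on the other chromosomes). Saos-2 alone had one at 20 (8.40%, against 5.03%), U2OS alone at 17 (7.14%, against 10.6%), and neither at 135. The order of the single-line counts was not stable: within 500 bp of an end they were 16 and 18, and on the long arm without keratin-associated protein genes 16 and 16 of 169, where both lines had a hotspot at 39.1%. The single-line genes were divided between the segments. From 14 to 34 Mb, 0 of 93 genes belonged to Saos-2 only, which allows up to 3.23% by the limit of 3 counts in 93, and 14 to U2OS only. Above 34 Mb, 17 of 125 genes belonged to Saos-2 only and 3 to U2OS only, which were TMPRSS3, SUMO3 and S100B. With lists of equal length the counts were 0 and 9 in the proximal segment and 19 and 1 in the distal segment. In the top 50% of each list by significance, 4 Saos-2-only genes appeared in the proximal segment, beside 8 of U2OS only. The remaining 3 Saos-2 genes lay on the short arm.

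**Figure D4:**
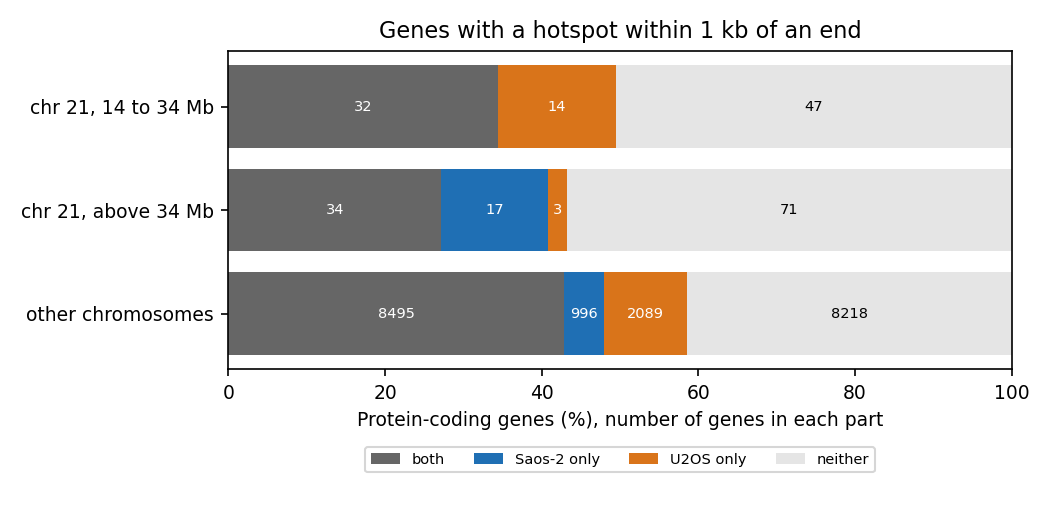
Protein-coding genes (horizontal axis, percent of the genes of each row) by whether both lines, a single line or neither had a hotspot within 1 kb of an end, for 2 segments of chromosome 21 and for the other chromosomes; numbers give the genes in each part. The row from 14 to 34 Mb has 14 U2OS-only genes and no Saos-2-only part, and the row above 34 Mb has 17 Saos-2-only and 3 U2OS-only genes.

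Hotspot-covered bases per gene were compared next. Among genes with a hotspot inside them or within 10 kb, 66 of 92 above 34 Mb (71.7%) had more hotspot-covered bases in Saos-2, and 23 of 65 from 14 to 34 Mb (35.4%) did. On the other chromosomes the share was 38.2%. Among such genes, the median difference, Saos-2 minus U2OS, was 253 bases above 34 Mb, -105 bases from 14 to 34 Mb and -100 bases on the other chromosomes.

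The genes of the windows with more Saos-2 hotspots are described from the centromere outward. They were selected for the largest Saos-2 minus U2OS difference in covered bases, up to 4 in a window, so their order is set by that choice. In the window from 14 to 16 Mb (35 hotspots in Saos-2, 31 in U2OS) HSPA13 had 1236 covered bases in Saos-2 and 600 in U2OS, and USP25 had 777 and 367. The USP25 difference lay inside the gene, which held 4 Saos-2 hotspots, whereas its promoter, printed above, was open in U2OS only.

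From 32 to 34 Mb the numbers were nearly even, 67 in Saos-2 and 62 in U2OS, and the 4 genes included 3 cytokine receptor subunits. IL10RB, a chain of the interleukin-10 receptor, had 1517 covered bases in Saos-2 and 757 in U2OS. IFNAR1, a chain of the type I interferon receptor, had 1209 and 560, and its gene-end hotspot at chr21:33324307-33325125 had a significance of 14.8 in Saos-2 against 8.26 for the U2OS hotspot it overlapped. IFNGR2, a chain of the interferon-gamma receptor, had 1515 and 1028. ITSN1, an endocytic scaffold protein, had 3329 and 2641. IFNAR2, the partner chain of IFNAR1, went the other way at its start: U2OS had hotspots with significances of 3.35 and 3.55 there, and the nearest Saos-2 hotspot, 73 bp wide with a significance of 1.46, lay just over 1 kb inside the gene. Neighbouring receptor genes thus lay on both sides of the balance.

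The window from 34 to 36 Mb held the most Saos-2 hotspots of the chromosome, 85 against 58 in U2OS. RUNX1, a Runt-domain transcription factor best known from blood formation, had the most Saos-2 covered bases of the genes chosen, 4975 in Saos-2 and 3725 in U2OS. It contained 17 Saos-2 and 12 U2OS hotspots. The Saos-2 hotspots at chr21:34845762-34846047 and chr21:34846567-34846895, with significances of 10.3 and 9.12, had no overlap, while the most significant one, at chr21:34836068-34836498, had 18.0 against 5.09 for its U2OS counterpart. In the other direction, a U2OS hotspot at chr21:34982948-34983435 had 13.2 and its Saos-2 counterpart 6.39, so single sites in RUNX1 differed in both directions.

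RCAN1, an inhibitor of the phosphatase calcineurin, had 1866 covered bases in Saos-2 and 985 in U2OS, and its start-side hotspot had significances of 18.7 and 7.21. MRPS6, a protein of the mitochondrial ribosome, had 381 and 79, and CLIC6, of the chloride intracellular channel family, had 445 and 180. The second most significant Saos-2 hotspot of the chromosome without overlap, 23.4 at chr21:34307571-34308263, lay between genes in this window, 56.1 kb from the nearest end of KCNE2.

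In the window from 36 to 38 Mb Saos-2 had 66 hotspots and U2OS 31. HLCS, the enzyme that attaches biotin to carboxylases, had 12 Saos-2 hotspots and 5 U2OS hotspots with 3475 and 1273 covered bases, and only Saos-2 had hotspots at its upstream end (significances 3.90 and 2.24). A site inside HLCS went against this: at chr21:36784000-36784395 U2OS had a significance of 19.9 and Saos-2 a hotspot of 82 bp with 1.64. DOP1B had 2501 and 775 covered bases, TTC3, a ubiquitin ligase, 1324 and 223, and DYRK1A, a protein kinase studied in Down syndrome, 1577 and 598. At the start of DYRK1A both lines had a hotspot, with 21.6 in Saos-2 and 11.4 in U2OS. Another strong Saos-2 hotspot inside the gene (17.6, chr21:37452085-37452673) had none in U2OS. VPS26C, whose product belongs to a membrane-sorting complex, was shared at nearly the same significance, 23.8 and 22.6.

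From 38 to 40 Mb the numbers were 54 and 26. GET1, which helps to insert proteins into the endoplasmic reticulum membrane, had 1074 covered bases in Saos-2 and 280 in U2OS, and the read-through gene GET1-SH3BGR, which shares its start, had 1550 and 516. B3GALT5, a galactosyltransferase, had 3 Saos-2 hotspots and no U2OS hotspot. KCNJ15, a potassium channel, had 1894 and 926 covered bases. The 2 ETS factor genes of this window were unlike each other: ERG had 4 hotspots in each line with 692 and 948 covered bases, and ETS2 had a gene-end hotspot in Saos-2 only, 90 bp wide with a significance of 1.94.

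The window from 40 to 42 Mb had the largest ratio of the long arm, with 41 hotspots against 12, or 3.42-fold. All 6 of its paired sites were more significant in Saos-2. MX1 had 1047 covered bases in Saos-2 and 302 in U2OS. Inside the gene, a shared hotspot had 17.4 and 9.38. C2CD2 (1438 bases), PRDM15, a zinc finger gene (733 bases), and TMPRSS2, a membrane serine protease (718 bases), were covered in Saos-2 and had no U2OS hotspot. The longest run of Saos-2 hotspots of the chromosome without a U2OS hotspot between them was 17 hotspots at chr21:41684505-42002736. It ran over RIPK4, PRDM15 and C2CD2 and ended inside ZBTB21. The promoter of ZBTB21 was open in both lines, with 11.5 in Saos-2 and 21.5 in U2OS. DSCAM, a very long gene of neuronal cell adhesion in the same window, had 0 Saos-2 hotspots and 1 in U2OS, so the excess did not extend to every gene.

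From 42 to 44 Mb the lines were closer, at 58 and 49. UMODL1 had 3307 covered bases in Saos-2 and 476 in U2OS, RRP1B, a ribosomal RNA processing factor, 1173 and 0, PDXK, pyridoxal kinase, 1710 and 871, and CSTB, an inhibitor of cysteine proteases, 572 and 0. RRP1B, CSTB and RRP1 lie close together. At a gene end, CSTB and RRP1 had a hotspot in Saos-2 only and RRP1B had none in either line.

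The window from 44 to 46 Mb had 53 Saos-2 and 42 U2OS hotspots, with 13 against 5 at gene ends. COL6A1, which encodes a chain of collagen VI in the extracellular matrix, had 11 Saos-2 hotspots within 10 kb and 0 in U2OS. None lay inside the gene itself (chr21:45981770-46005048): 6 lay before its lower-coordinate end, the nearest 2 within 1 kb of it (significances 3.48 and 5.69) and 5 beyond its other end, of which those at chr21:46010366-46010772 and chr21:46010996-46011419 were the most significant, at 16.3 and 14.7. These belonged to a Saos-2 run of 16 hotspots at chr21:45880521-46039275 that began in PCBP3, an RNA-binding protein gene with 3213 and 1396 covered bases. ITGB2, the beta chain of leukocyte integrins, had 1448 and 494, and TRPM2, a cation channel, 1265 and 666. COL18A1, the other collagen gene of this window, had fewer covered bases in Saos-2, 880 against 1221, although its most significant hotspot had 21.8 in Saos-2 and 11.1 in U2OS.

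In the last window, from 46 Mb, Saos-2 had 30 hotspots and U2OS 17. COL6A2, a second collagen VI chain, had 1 Saos-2 hotspot of 490 bp with a significance of 10.3 within 10 kb and none in U2OS. LSS, lanosterol synthase of cholesterol synthesis, had 2071 and 611 covered bases, SPATC1L 1398 and 166, and MCM3AP, a factor in mRNA export, 1925 and 1366. S100B, a calcium-binding protein gene of glial cells, had its only hotspot in U2OS, with a significance of 4.12.

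**Figure D5:**
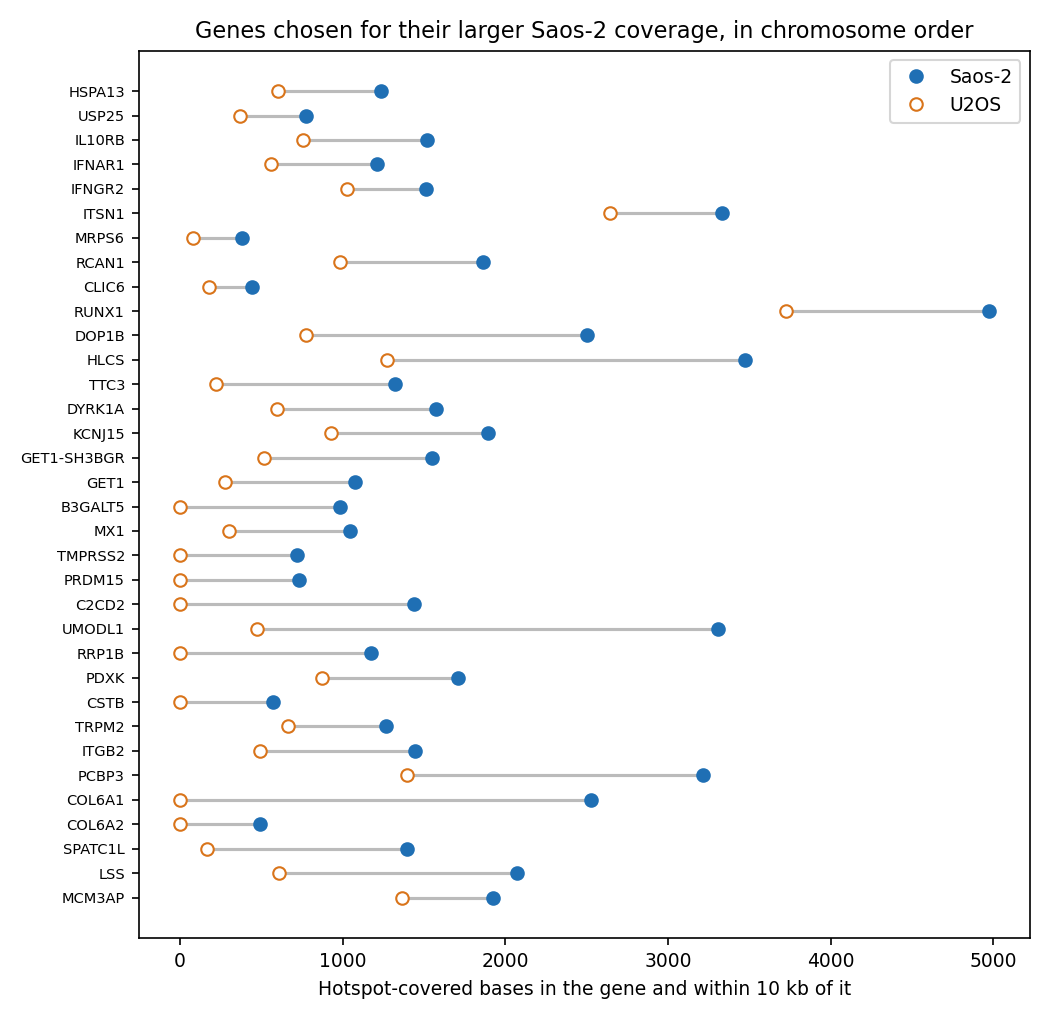
Hotspot-covered bases inside each gene and within 10 kb of it (horizontal axis, bases) for the long-arm genes with the largest Saos-2 minus U2OS difference in windows where Saos-2 had more hotspots, in chromosome order from the top (vertical axis). Filled points are Saos-2 and open points U2OS, 1 library each; B3GALT5, TMPRSS2, PRDM15, C2CD2, RRP1B, CSTB, COL6A1 and COL6A2 are at 0 in U2OS.

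The windows in which U2OS had most in excess were those from 30 to 32 Mb, with 21 Saos-2 and 54 U2OS hotspots, and from 28 to 30 Mb, with 39 and 63. The windows from 22 to 24 Mb (6 and 15) and from 24 to 26 Mb (12 and 21) shared the third place. TIAM1, an activator of the GTPase Rac in the first window, had 13 hotspots within 10 kb in Saos-2, 18 in U2OS, and 3202 and 6224 covered bases in that order. The hotspot near its lower-coordinate end, 413 bp wide with a significance of 19.995, was in U2OS only. SOD1, superoxide dismutase, was open in both lines, at 8.13 in Saos-2 and 19.0 in U2OS.

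Between 28 and 30 Mb, 3 housekeeping promoters were shared but more significant in U2OS. CCT8, a subunit of a cytosolic chaperonin, had 5.53 in Saos-2 and 55.4 in U2OS, LTN1, a ubiquitin ligase of ribosome quality control, 14.2 and 54.3, and USP16, a histone deubiquitinase, 11.8 and 34.3. BACH1, a repressor of heme-responsive genes, had a U2OS hotspot of 751 bp over its start with a significance of 11.4. Just over 1 kb further in, at chr21:29300070-29300501, Saos-2 had 6.98 and U2OS 7.67.

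Keratin-associated protein genes, which are used in hair, lie in clusters in the windows from 30 to 32 Mb (33 genes) and from 44 to 46 Mb (16 genes). Of the 49, 47 had no gene-end hotspot in either line (95.9%, against 56.7% of all genes of chromosome 21 and 41.5% on the others). KRTAP10-12 had a Saos-2 hotspot of 597 bp with a significance of 11.9. KRTAP21-3 was the exception in U2OS: 5 hotspots lay within 10 kb of it, and that at chr21:30718240-30718638, over the gene, had a significance of 16.8. Of the 33 genes of the proximal cluster, 7 had a U2OS hotspot within 10 kb and 0 a Saos-2 hotspot. By this measure, 162 of the 238 genes of the chromosome had a hotspot of either line, and 16996 of 19798 on the others. These genes lie close together, so a single hotspot can count for several of them. A U2OS run of 13 hotspots at chr21:30434094-31117690 covered most of this cluster, and the run of equal length at chr21:27734300-28539282 contained no protein-coding gene. Near these clusters, CLDN8, a tight junction gene, had a U2OS hotspot of 383 bp (significance 13.7) within 10 kb and none in Saos-2.

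Gene lists by role are given next, each chosen with earlier results of these data known. Their counts are read against the shares of all genes given above: on chromosome 21, 27.7% open in both lines, 8.40% in Saos-2 alone and 7.14% in U2OS alone, and on the other chromosomes 42.9%, 5.03% and 10.6%. Of 21 transcription and chromatin regulators, 9 were open at an end in both lines, among them RUNX1, GABPA, NRIP1 and HMGN1, 2 in Saos-2 only (CHAF1B and ETS2), 3 in U2OS only (BACH1, OLIG1 and OLIG2) and 7 in neither. OLIG2, a factor of the oligodendrocyte lineage, had a U2OS hotspot over its start with a significance of 12.5 and none within 10 kb in Saos-2. The most significant U2OS hotspot without overlap on the chromosome, 31.1 at chr21:33011419-33011843, lay 14.3 kb from OLIG2.

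Among 45 housekeeping and organelle genes, 28 were open at an end in both lines, 7 in Saos-2 only (SLC5A3, MRPS6, U2AF1, CSTB, RRP1, TRAPPC10 and POFUT2), 3 in U2OS only (RBM11, RWDD2B and SUMO3) and 7 in neither. Most of these single-line hotspots had a low significance. In Saos-2 it was 1.83 for SLC5A3 and MRPS6, 2.06 for U2AF1, 1.59 for CSTB and 1.60 for POFUT2. It was higher for RRP1 (5.15) and TRAPPC10 (3.98). In U2OS it was 1.90 for RBM11, 2.08 for SUMO3 and 5.43 for RWDD2B. All 7 of the Saos-2 genes lay above 34 Mb, and RBM11 and RWDD2B below it. Of 27 such genes above 34 Mb, 19 had more covered bases in Saos-2 and 6 in U2OS, and of 18 below it 8 and 10. Over each whole list, with genes without a hotspot counted as 0, the median difference was 57 bases here and 28 bases for the regulators. On the same basis it was 0 over the 238 genes of the chromosome and -31 over those of the other chromosomes. MRPS6 and SLC5A3 share a start, so their hotspot is a single one.

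Of 10 genes listed for interferon and IL10 receptors and response, 8 had more covered bases in Saos-2 and 1 in U2OS. The other 1, ICOSLG, had no hotspot within 10 kb. The median difference was 568 bases over the list. Among all genes of chromosome 21 with a hotspot within 10 kb, 58.0% had more in Saos-2, with 71.7% above 34 Mb and 35.4% from 14 to 34 Mb. Of the listed genes, 4 of 5 in each of these segments had more in Saos-2. The 8 were IFNAR1, IFNGR2, IL10RB, MX1 and MX2, and also USP25, TMPRSS2 and ITGB2, which are no receptors of these cytokines. MX1 and ITGB2 had a gene-end hotspot in Saos-2 only, USP25 and IFNAR2 in U2OS only. Of 10 matrix and neighbouring genes, 4 were open at an end in both lines: the metalloproteases ADAMTS1 and ADAMTS5 and the neighbours SPATC1L and LSS. COL6A1 and PCBP3 were open in Saos-2 only. The median difference was 281.5 bases, with large positive values at the neighbours PCBP3 (1817), LSS (1460) and SPATC1L (1232). The collagen and metalloprotease genes were divided: COL6A1 2525, COL6A2 490, ADAMTS1 73, COL18A1 -341 and ADAMTS5 -348. Of 14 genes of the Down syndrome region and related regulators, 4 were open in both (ITSN1, RCAN1, DYRK1A and SH3BGR), HLCS and BACE2 in Saos-2 only, APP and S100B in U2OS only, and 6 in neither, with a median of 0.5 bases.

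Of 24 genes typical of other tissues, 19 had no gene-end hotspot in either line (against 56.7% of all genes of chromosome 21 and 41.5% on the others), 1 (TIAM1) had one in both, and 4 in U2OS only (NCAM2, CYYR1, GRIK1 and TMPRSS3), with significances at the gene ends between 1.90 and 3.18. TFF1, TFF2, CLDN17 and CRYAA had no hotspot within 10 kb in either line. The median difference over this list was -30 bases.

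Among sites with exactly 1 hotspot of each line, the 5 whose lower significance was highest were mostly at gene ends. After HSPA13 they were at the common start region of CRYZL1 and ITSN1 (26.7 in Saos-2, 44.1 in U2OS), at PAXBP1 (25.01 and 28.2), inside MAP3K7CL at chr21:29114693-29115224 (22.9 and 27.7) and at VPS26C. Among sites without overlap, the highest significance was 63.7 in Saos-2, at chr21:7258656-7258925 on the short arm, 486 kb from the nearest protein-coding gene end. The 5 most significant Saos-2 sites without overlap went down to 20.9, at chr21:7926054-7926630. That at chr21:27206461-27206919 (21.4) lay inside genes that are not protein-coding. The others, among them chr21:35924842-35925902 (21.3), lay between genes. The 5 most significant U2OS sites without overlap, from 21.9 to 31.1, all lay between genes, from 14.3 to 1540 kb from a protein-coding gene end.

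The short arm and centromere side, below 14 Mb, held 45 Saos-2 and 27 U2OS hotspots, of which 4 and 5 were overlapped. A Saos-2 hotspot of 3393 bp was the widest of the chromosome. Gene-end hotspots were found there in Saos-2 alone, 2 in number, with significances of 12.8 (LOC102724023) and 2.98 (LOC102724159 and its neighbour LOC102724200). A further Saos-2 hotspot of 323 bp, with a significance of 15.4, lay within 10 kb of LOC102724428 and LOC107987288. This part of the assembly repeats part of the long arm. Of 18 short-arm genes with a promoter entry, 11 had a 300-base promoter window that shared at least 50% of its 25-base words with the promoter of a long-arm gene. The 11 long-arm genes were ICOSLG, GATD3, PWP2, SIK1, CBS, U2AF1, CRYAA, SMIM11, C21orf140, SMIM34 and KCNE1. Only U2AF1, a splicing factor gene, had a gene-end hotspot, in Saos-2 with a significance of 2.06, and only U2AF1 and SMIM11 had any hotspot within 10 kb. The share of words ranged from 75% for GATD3 to 100% for C21orf140, SIK1, CRYAA and SMIM34. Reads from stretches that are identical in both copies cannot be assigned to one place by sequence alone. The treatment of such reads is not given in the sources used here. Its part in the missing hotspots, and in those found on the short arm in either line, was not tested. The promoters of LOC102724023 and LOC102724159, which had Saos-2 hotspots, shared 75% and 77.2% of words with GATD3 and PWP2. Without the segment below 14 Mb, the log2 value relative to the other chromosomes given at the opening was -0.47.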

How the data were processed

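DNase-seq was measured in 1 library each of Saos-2 and U2OS. Per the submitters' processing notes, Trimmomatic 0.38, BWA 0.7.15 and hg38 were used; the peak caller and the treatment of duplicate or multiply mapping reads are not given in the sources used here. The authors deposited a separate list per library, with, for each hotspot, its position, a −log10 significance (lowest 1.30, capped at 100) and a score that is the −log10 value times 10, rounded; the deposited score was not used. That the significance is a −log10 value was read from its range and the list's false discovery rate of 0.05. Read depth is unknown. The lists have no header lines.

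Hotspots were placed in 2 Mb windows by midpoint and overlapped by at least 1 bp, with Python 3.11.15, pandas 2.3.3 and SciPy 1.17.1. Gene spans came from RefSeq on GRCh38.p14; of 239 protein-coding genes listed on the chromosome, 1 at a position below 5 Mb, where no other gene is listed, was left out, and 183 of the 238 others had a promoter entry. The functions were tested on simulated intervals. Intervals for shares are Wilson 95% intervals, and those for ratios of counts are log-normal; both cover counting error only. Members, gene lists and naming rules were chosen with earlier results of these data known. Named were every window with more Saos-2 hotspots and the 3 with the largest U2OS excess, up to 4 genes per window by covered bases, 5 single-line genes and 5 single-line hotspots per line, 5 shared pairs, and list members open in a single line. Other genes and single hotspots named (such as ERG, DSCAM, COL18A1, TIAM1, SOD1, CCT8, LTN1, USP16 and KRTAP10-12, and sites within RUNX1, HLCS and DYRK1A) were chosen after their values were seen.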

Additional observations from a re-analysis of the deposited data

How the results depend on the processing

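No paired analysis was possible because each line was 1 library. Of 153 values recomputed under other settings for 23 results, 120 stayed within their interval or within 1.5-fold and 33 did not. A change of sign was looked for in log2 ratios alone, and 0 were found. Counts and shares inside these limits could still reverse an order. Within 500 bp of an end, genes of a single line numbered 16 for Saos-2 and 18 for U2OS. Leaving out dense clusters removed no hotspot of chromosome 21, and lists of equal length left the Saos-2 list whole, so some values could not move. The segments and their alternatives were chosen after seeing the data; the cause of the changes was not tested except where fewer hotspots or larger windows enter by construction. Numbers of hotspots on chromosome 21 were 351 (Saos-2) and 288 (U2OS) in the top 50% of each list, and 435 Saos-2 hotspots were at least 200 bp wide. Windows with more Saos-2 hotspots numbered 22 at 1 Mb (55% of windows), 7 at 4 Mb (63.6%) and 9 of 22 (40.9%) with hotspots at least 200 bp wide. Overlap with 50% of both hotspots required was 33.0% (Saos-2) and 37.7% (U2OS), for gene-end hotspots of Saos-2 54.7%, and for the others 29.6% and 34.3%. With lists of equal length, 55.2% of U2OS hotspots and 51.7% of those away from gene ends were overlapped. In the top 50%, overlap was 34.7% for Saos-2 hotspots away from gene ends and 77.4% for U2OS gene-end hotspots. The share at gene ends was 17.1% (Saos-2) and 18.4% (U2OS) in the top 50%, 16.8% and 17.4% within 2.5 kb, and 22.4% and 21.6% for all annotated genes. Genes open at an end in U2OS only numbered 10 with equal lists and 9 in the top 50%. By segment, those from 14 to 34 Mb numbered 9 within 2.5 kb, 9 with equal lists and 8 in the top 50%, where 4 Saos-2-only genes appeared; above 34 Mb they numbered 1 with equal lists, 1 in the top 50% and 7 with the boundary at 32 Mb. With the boundary at 36 Mb, 2 Saos-2-only genes lay in the proximal segment. The log2 ratio of Saos-2 to U2OS hotspots above 34 Mb was 1.06 in the top 50%, and with equal lists it was 0.97 there and -0.11 from 14 to 34 Mb. Unknown depth limits every comparison of number and significance between the lines.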
